A study of Mus musculus with 10 samples.

Results

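The nuclear genes of respiratory complex I and of its assembly were examined in αTC1, a glucagon-producing mouse pancreatic α cell line. The members were all rows of the count table whose symbol starts with Nduf, other than symbols carrying -ps. This gave 45 of 33212 genes, namely 38 subunit symbols and 7 assembly factor symbols (Ndufaf), and all 45 had enough counts to be tested. Cells were grown in DMEM with 1 g/L glucose and 10% serum and received 10 μM enzalutamide, an antagonist of the androgen receptor, or the solvent DMSO for 48 h. Each group held 5 libraries of polyadenylated RNA, labelled as biological replicates. The line comes from a tumour of transgenic mice that carried a viral large T antigen under the glucagon promoter, so both groups share that transgene and a proliferating tumour background. The series title places the work in a study of metabolism and of the formation of β cells from α cells.

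Complex I oxidises NADH in the mitochondrial matrix, passes the electrons through flavin and iron-sulphur clusters to ubiquinone, and pumps protons across the inner membrane. It is built as an L with a matrix arm, which holds the NADH-oxidising N module and the ubiquinone-binding Q module, and a membrane arm that pumps protons. The core subunits of the matrix arm are nuclear genes with Ndufv and Ndufs symbols, and the core of the membrane arm is encoded in mitochondrial DNA. The many accessory subunits surround this core, and the assembly factors help to build the complex without remaining in it. In islet cells, oxidation of fuel by the respiratory chain supplies the ATP that couples nutrients to hormone release.

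Totals were between 59557697 and 68603842 counts per library. Gcg, the glucagon gene, averaged 8466 CPM in enzalutamide and 15269 CPM in DMSO, where CPM are counts per 1000000 of the scaled library. Ins1, Pdx1, Sst, Ppy and the leukocyte gene Ptprc had 0 counts in every library. The other β cell markers, Ins2 and Mafa, averaged 0.409 and 0.989 CPM in enzalutamide and 0.626 and 1.03 CPM in DMSO. The δ cell marker Hhex had at most 8 counts in a library. All 7 α cell markers were detected, and their sum was 10936 to 12231 CPM in enzalutamide and 18415 to 19628 CPM in DMSO. Fibroblast markers summed to 7.60 to 9.77 CPM in enzalutamide and 6.60 to 7.73 CPM in DMSO, and ductal and acinar markers to 8.49 to 11.04 and 11.2 to 11.9 CPM, without Krt19 and Prss1. The part of these shifts in the complex I values was not tested. Mitochondrially encoded genes took 7.41 ± 0.268% of counts in enzalutamide and 6.33 ± 0.188% in DMSO (SD, n = 5 each). No pair of replicates agreed within counting error (the chi-square divided by its degrees of freedom was 9.24 to 38), so all 10 libraries were kept as separate samples. Since the labels do not name separate cultures, the p-values rest on library-to-library spread, which may be technical. Enzalutamide library 5 stood apart for the complex I genes. It was the lowest of all 10 libraries for 31 of the 45 members, with a median log2 difference of -0.23 from the other 4 enzalutamide libraries, whereas the median over all genes was 0.0015. Genes with transcripts under 1000 bases, 1163 in number, also had a lower median there (-0.10). Library 2 of the same group was the highest of its 5 for 33 members, and the genes under 1000 bases had a higher median there (0.08). Over all annotated genes the Spearman correlation of the difference with transcript length was 0.345 in library 5 and -0.335 in library 2.

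Enzalutamide changed complex I transcripts by small amounts and in both directions. Of the 45 members 12 fell and 6 rose by edgeR's quasi-likelihood test at an adjusted p under 0.05. In the comparison of enzalutamide with DMSO 37.8% of all 14156 genes tested were called, 19.0% as higher and 18.8% as lower. The share of members called, 40%, was thus close to that of all genes. A log2 fold change is given throughout as enzalutamide over DMSO, with its standard error (SE). The log2 fold changes were negative for 31 members and positive for 14, and their median was -0.08, against 0.01 over all genes. No member other than the scarcely expressed Ndufa4l2 changed by more than 0.35 on the log2 scale. Without enzalutamide library 5, 11 members fell and 7 rose, and the median of the subunits was -0.04 in place of -0.08. Summed over all members, complex I had 4683 ± 291 CPM in enzalutamide and 4924 ± 138 CPM in DMSO (SD, n = 5 each), with overlapping libraries. In RNA from whole cultures, fewer cells with a transcript and less of it per cell cannot be told apart.

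**Figure D1:**
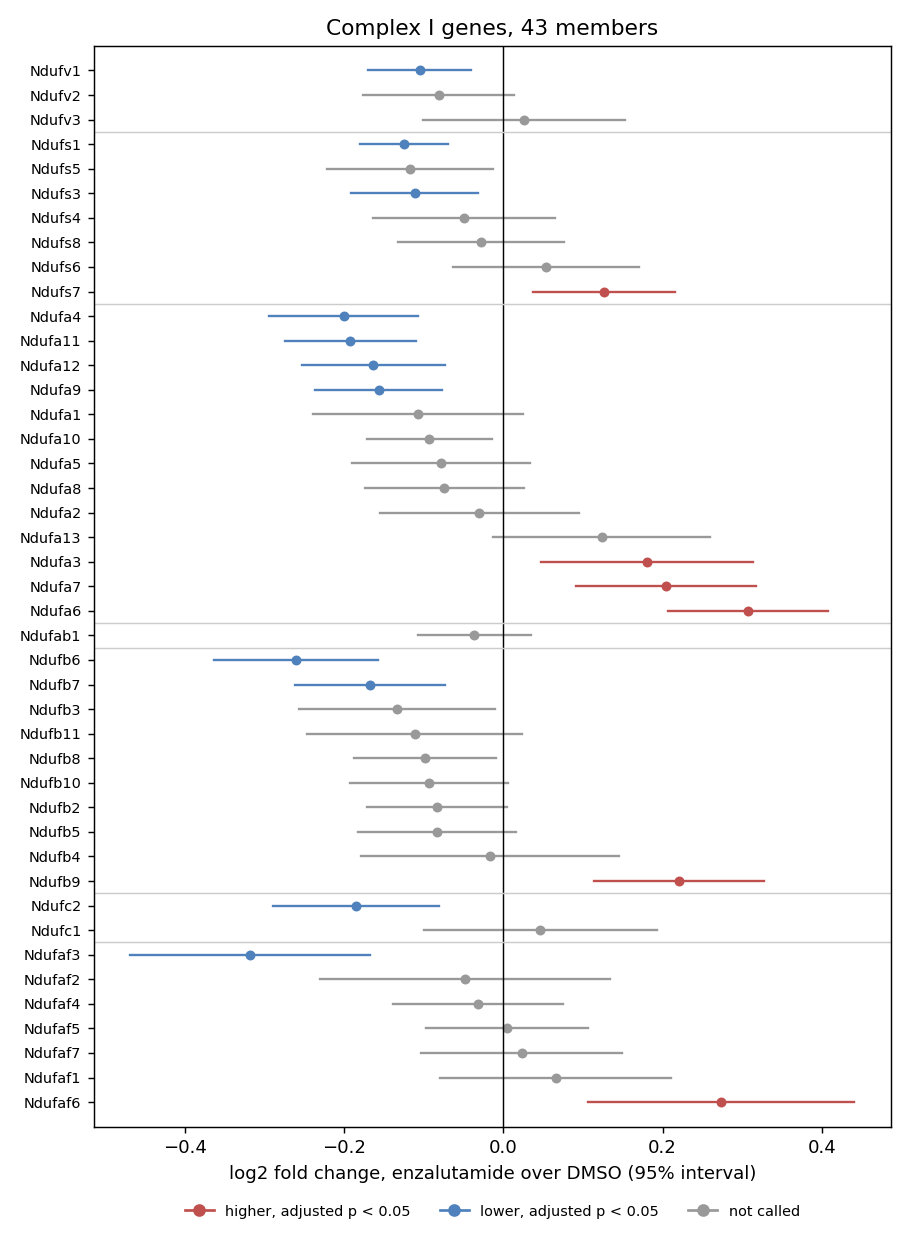
Log2 fold change of enzalutamide over DMSO for 43 members, grouped by symbol (Ndufa4l2, at -0.24 to 1.96, and 1 other member are not drawn); points are estimates, bars 95% intervals, and colours mark an adjusted p under 0.05. The intervals of Ndufa6, Ndufb9 and Ndufa7 lie above 0, and those of Ndufb6, Ndufaf3 and Ndufa4 below it.

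The nuclear core subunits carry the electron path, and 6 of them are described. Ndufv1, which binds NADH and the flavin, was at 154, 163, 157, 155 and 148 CPM in enzalutamide libraries 1 to 5, against 172, 165, 171, 169 and 160.1 CPM in DMSO libraries 1 to 5. Enzalutamide library 2 reached into the DMSO range, and the fall was small (log2 fold change -0.11, SE 0.0329, adjusted p = 0.0177). Its adjusted p was 0.0985 when libraries were scaled to total counts. Ndufv2, a neighbouring iron-sulphur protein of the N module, was at 151, 163, 157, 149 and 131 CPM in enzalutamide and 162, 152, 168, 156 and 155 CPM in DMSO. The groups overlapped and the difference did not pass (log2 fold change -0.08, adjusted p = 0.212). Ndufs1, the subunit that holds most of the N module's clusters, was at 337, 339, 347, 357 and 339.6 CPM in enzalutamide and 367, 369.8, 388, 379.5 and 371 CPM in DMSO. Every enzalutamide value lay below every DMSO value (log2 fold change -0.12, SE 0.028, adjusted p = 0.00182).

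In the Q module, Ndufs7 carries the terminal cluster that reduces ubiquinone, and it was higher in enzalutamide. Its values were 82.7, 91.2, 80.97, 80.9 and 74.3 CPM in enzalutamide and 72.9, 74.3, 76.9, 74.9 and 76.6 CPM in DMSO, with overlap only through enzalutamide library 5 (log2 fold change 0.13, SE 0.0455, adjusted p = 0.0361). The call of Ndufs7 held in 11 of 20 alternative analyses, and was lost without any one of enzalutamide libraries 1 to 4 or DMSO libraries 1, 2 and 4, with log2 fold changes of 0.09 (adjusted p = 0.0975) without enzalutamide library 2 and 0.11 to 0.13 without the others. With GC content and length trends removed it was 0.05 (adjusted p = 0.326). Ndufs3, a matrix arm subunit of the Q module, was at 97.6, 109, 101, 105 and 94.2 CPM in enzalutamide and 108, 105, 115, 111 and 108 CPM in DMSO, which overlapped. The fall was small (log2 fold change -0.11, SE 0.0407, adjusted p = 0.0395) and was lost without any one of enzalutamide libraries 1, 3 and 5 or DMSO libraries 3, 4 and 5, with adjusted p of up to 0.109 among these. Ndufs8, which holds clusters between those of the N module and Ndufs7, was at 75.8, 78.03, 71.7, 75.4 and 64.2 CPM in enzalutamide and 72.7, 71.7, 79.9, 78.8 and 69.1 CPM in DMSO. These values overlapped and did not pass (log2 fold change -0.03, adjusted p = 0.727). Of these 6 core subunits 3 therefore fell, 1 rose and 2 did not pass, while 37.8% of all genes tested were called.

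The members that rose, Ndufs7 apart, were 4 accessory subunits and the assembly factor Ndufaf6. The clearest was Ndufa6 (ENSMUSG00000022450; chromosome 15, 82350140 to 82354322 of GRCm38/mm10), an accessory subunit of the matrix arm. It stood at 113, 112, 104, 105 and 92.5 CPM in enzalutamide and 86.8, 77.9, 90.5, 85.9 and 84.1 CPM in DMSO. The groups did not overlap, and the rise was 1.24-fold (log2 fold change 0.31, SE 0.0515, adjusted p = 0.000141). Ndufb9 (chromosome 15, 58933756 to 58939488), an accessory subunit near the far end of the membrane arm, was at 179, 189, 176, 168 and 148 CPM in enzalutamide and 145, 145, 159, 152 and 136 CPM in DMSO. Only enzalutamide library 5 lay among the DMSO values (log2 fold change 0.22, SE 0.0545, adjusted p = 0.00375). A same-strand gene model, Gm49356, covers 19.5% of the exonic bases of Ndufb9 and was not used here. Both proteins belong to the LYR family and each binds a copy of the mitochondrial acyl carrier protein, which is the product of Ndufab1. This shared family was noticed after the values were seen. Ndufab1 itself averaged 139 ± 7.11 CPM in enzalutamide and 143 ± 2.76 CPM in DMSO (SD, n = 5 each) and did not pass (log2 fold change -0.04, adjusted p = 0.471).

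Ndufa7, another accessory subunit of the matrix arm, was at 72.00, 69.2, 67.9, 70.7 and 56.5 CPM in enzalutamide and 58.05, 55.1, 62.9, 58.6 and 57.2 CPM in DMSO. Enzalutamide libraries 1 to 4 lay above all DMSO values and library 5 lay within them (log2 fold change 0.20, SE 0.0576, adjusted p = 0.00933). Ndufa3, a small accessory subunit of the membrane arm, was at 39.9, 40.6, 39.2, 36.9 and 31.7 CPM in enzalutamide and 29.8, 33.5, 35.97, 35.3 and 31.6 CPM in DMSO. Here too library 5 alone came down to the lower DMSO values (log2 fold change 0.18, SE 0.0678, adjusted p = 0.0445). The call of Ndufa3 held in 10 of 20 alternatives and was lost without any one of enzalutamide libraries 1 to 4 or DMSO libraries 1, 2 and 5, with an adjusted p of up to 0.131. Without enzalutamide library 5 the log2 fold changes were larger, at 0.35 for Ndufa6, 0.27 for Ndufb9, 0.26 for Ndufa7 and 0.24 for Ndufa3. Ndufa13, a membrane arm accessory subunit also known as GRIM-19, then passed as well (log2 fold change 0.17, adjusted p = 0.0334), against log2 fold change 0.12, adjusted p = 0.181 with all libraries. Tssk6 shares 375 bases with the exons of Ndufa13 on the opposite strand and was at 3.17 CPM in enzalutamide and 3.13 CPM in DMSO, far under Ndufa13 at 95.1 and 87.3 CPM.

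**Figure D2:**
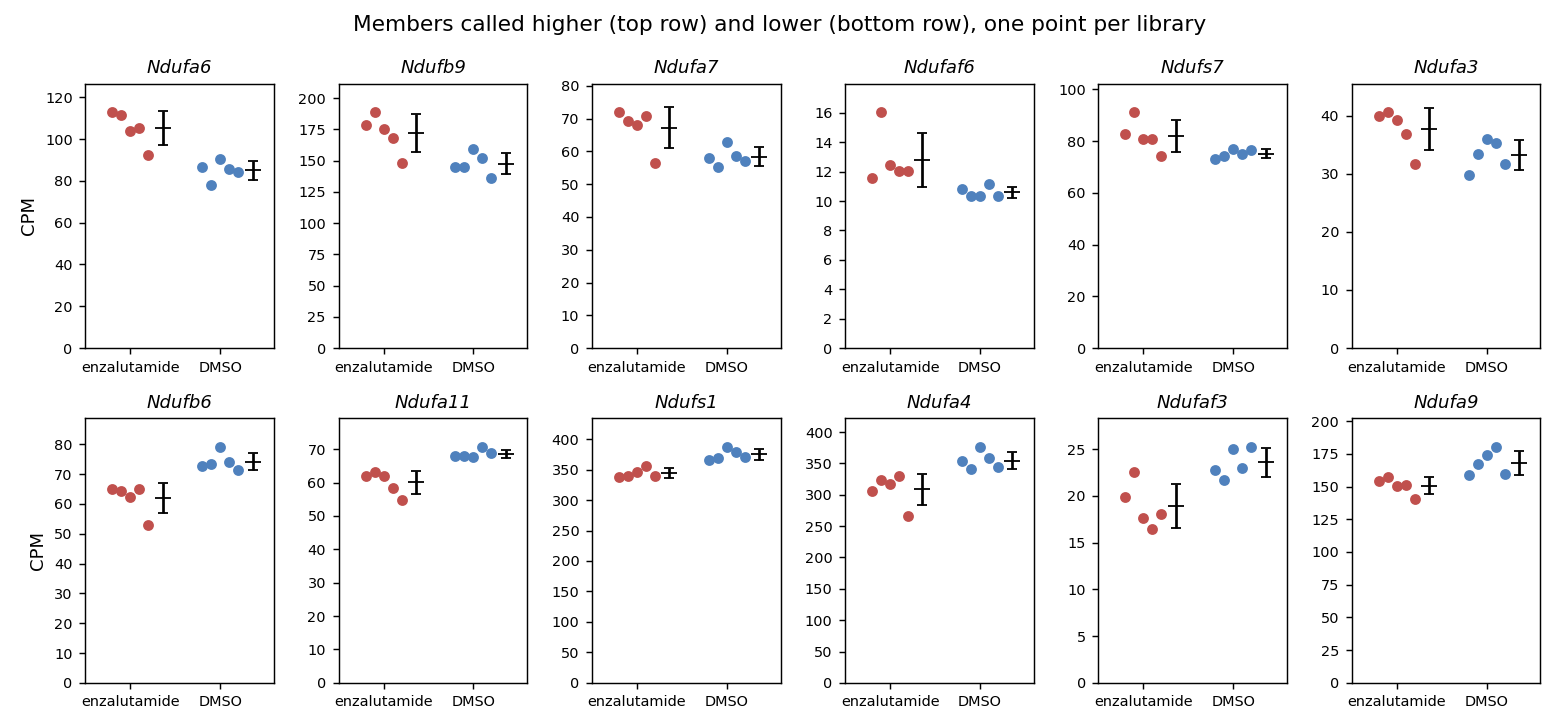
CPM of the 6 members called higher (top row) and the 6 lowest in adjusted p among those called lower (bottom row); each point is a library, black marks are the mean with its SD (n = 5 each), and each vertical axis starts at 0. In Ndufa6 and Ndufb6 the groups do not overlap, whereas in Ndufb9, Ndufa7 and Ndufa3 enzalutamide library 5, the last red point, reaches the DMSO range.

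Among the 12 members that fell, Ndufb6 (ENSMUSG00000071014; chromosome 4, 40270591 to 40279421), an accessory subunit of the membrane arm, had the lowest adjusted p. It was at 65.00, 64.4, 62.3, 65.1 and 52.9 CPM in enzalutamide and 72.8, 73.5, 79.2, 74.00 and 71.5 CPM in DMSO. No values overlapped, although library 5 was lower than the other 4 treated libraries (log2 fold change -0.26, SE 0.0524, adjusted p = 0.000755, and -0.21 without library 5). A gene on the opposite strand, listed as 2010003O02Rik, shares 257 exonic bases with Ndufb6 but was at 1.99 CPM in enzalutamide and 1.70 CPM in DMSO. Ndufa11, an accessory subunit of the membrane arm, was at 61.9, 63.1, 61.97, 58.5 and 54.7 CPM in enzalutamide and 67.9, 67.8, 67.6, 70.7 and 68.8 CPM in DMSO. Its DMSO values were close together and all above the treated ones (log2 fold change -0.19, SE 0.0419, adjusted p = 0.00146).

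Ndufa9, which lies where the matrix and membrane arms meet, was at 154, 157, 151, 151 and 140.3 CPM in enzalutamide and 159, 167, 174, 180.4 and 159 CPM in DMSO, again without overlap (log2 fold change -0.16, SE 0.0407, adjusted p = 0.00541). Ndufa4 is named as a complex I subunit, but its product is now assigned to cytochrome c oxidase (complex IV). Ndufa4 was at 307, 324, 317, 330.0 and 267 CPM in enzalutamide and 354, 341, 377, 358 and 344 CPM in DMSO. Library 5 was the lowest, and all treated values lay under all DMSO values (log2 fold change -0.20, SE 0.0477, adjusted p = 0.00289, and -0.15 without library 5). Ndufa12, an accessory subunit of the N module, fell by 0.16 on the log2 scale (adjusted p = 0.00902). Ndufb7, which faces the intermembrane space, fell by 0.17 (adjusted p = 0.0104), and Ndufc2, of the membrane arm, by 0.18 (adjusted p = 0.0108). Ndufb7 had no overlap between groups, and Ndufa12 and Ndufc2 did.

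The groups did not overlap for 9 of 45 members (20%), 7 that fell and 2 that rose (Ndufa6 and Ndufaf6). Over all genes tested this was so for 26.8%. In 14 of the 18 called members the call and its direction held in each of the 20 alternative analyses, namely 4 higher (Ndufa6, Ndufb9, Ndufa7 and Ndufaf6) and 10 lower. The 4 whose calls were lost in some were Ndufs7, Ndufa3, Ndufs3 and Ndufv1. No such count was made over all called genes. The alternatives reuse the same libraries and are not independent of one another.

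By symbol letter, 1 of 3 Ndufv genes fell and none rose. Of 8 Ndufs genes 3 fell and 1 rose. Of 14 Ndufa genes 4 fell and 3 rose, and of 10 Ndufb genes 2 fell and 1 rose. Of the 2 Ndufc genes only Ndufc2 fell, and Ndufab1, alone in its letters, did not pass. The median log2 fold changes were -0.08 for V, -0.08 for S, -0.08 for A, -0.10 for B and -0.07 for C. The letters thus differed little in their medians. Over all genes tested 37.8% were called, 19.0% as higher and 18.8% as lower. By position in the complex, 3 of the 8 genes listed for the N module fell and none rose, with a median of -0.06. In the Q module 2 of 5 fell and 1 rose (median -0.08). On the membrane arm 1 of 8 genes beside the subunits ND1 and ND2 fell and 1 rose (-0.08). Beside ND4 and ND5, 2 of the 11 genes measured fell and 1 rose (-0.09). Ndufa4, Ndufa4l2, Ndufa6, Ndufa7, Ndufa9 and Ndufa11 were in none of these lists. Of these the matrix arm genes Ndufa6 and Ndufa7 rose, Ndufa4, Ndufa9 and Ndufa11 fell, and Ndufa4l2 did not pass. The counts by position therefore depend on the lists. That none rose in the N module holds for its 8 listed genes only, and would not hold if Ndufa6 and Ndufa7 were placed there.

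The 26 members that did not pass, apart from Ndufa4l2, had log2 fold changes between -0.13 and 0.12, and 19 were negative. All 7 uncalled Ndufb genes were negative (-0.13 to -0.02), with Ndufb3, of the membrane arm, the most so (log2 fold change -0.13, adjusted p = 0.108). Ndufa10 was closest to the threshold (log2 fold change -0.09, adjusted p = 0.0785) and passed without enzalutamide library 2 (adjusted p = 0.00952). Without that library Ndufa8, Ndufb10 and Ndufb3 also passed as lower (adjusted p = 0.0393, 0.0349 and 0.0375). Ndufb2 passed without enzalutamide library 3 (adjusted p = 0.0449), and Ndufb8 without enzalutamide library 1 (adjusted p = 0.0486) or DMSO library 5 (adjusted p = 0.0262). Without enzalutamide library 5 the differences were smaller, with log2 fold changes of -0.06 for Ndufa10, -0.05 for Ndufa8, -0.05 for Ndufb10 and -0.07 for Ndufb3, and Ndufb4 was positive (0.04). None of these 5 passed then (adjusted p = 0.173 for Ndufa10). Ndufa4l2, a paralogue of Ndufa4 known as a hypoxia-induced gene, had 28, 22, 22, 15 and 16 counts in enzalutamide and 11, 11, 17, 0 and 18 counts in DMSO. These are 0.463, 0.327, 0.322, 0.225 and 0.246 CPM in enzalutamide, while DMSO libraries ranged between 0 and 0.273 CPM. A count of 0 allows up to 3 counts, or 0.0444 CPM in that library, for counting error only. The difference did not pass (log2 fold change 0.86, adjusted p = 0.254). The opposite-strand gene Shmt2 shares 32 exonic bases with Ndufa4l2 and was far more abundant, at 293 CPM in enzalutamide and 184 CPM in DMSO. It was higher as well (log2 fold change 0.67, adjusted p = 1.29e-10), and its part in the few counts of Ndufa4l2 was not tested.

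Among the assembly factors 1 of 7 fell, 1 rose, and 5 did not pass. The share called, 28.6%, was below the 37.8% of all genes tested. Ndufaf3, which works with Ndufaf4 on the Q module, was at 19.9, 22.6, 17.6, 16.4 and 18.1 CPM in enzalutamide and 22.8, 21.7, 25.05, 23.02 and 25.3 CPM in DMSO. Library 2 was the treated value inside the DMSO range (log2 fold change -0.32, SE 0.0767, adjusted p = 0.00319). The opposite-strand gene Impdh2 shares 48 exonic bases with Ndufaf3 and was more abundant, at 149 CPM in enzalutamide and 174 CPM in DMSO. It was lower as well (log2 fold change -0.22), and its part in the counts of Ndufaf3 was not tested. Ndufaf4 itself was at 71.4, 84.9, 84.2, 74.1 and 82.4 CPM in enzalutamide and 79.6, 82.2, 81.8, 73.9 and 88.3 CPM in DMSO, which overlapped widely (log2 fold change -0.03, adjusted p = 0.696). Ndufaf6, needed in human cells for the handling of the ND1 subunit, was at 11.5, 16.1, 12.4, 12.03 and 12.1 CPM in enzalutamide and 10.8, 10.4, 10.3, 11.2 and 10.3 CPM in DMSO. The groups did not overlap, and library 2 was well above the other 4 treated libraries (log2 fold change 0.27, SE 0.0854, adjusted p = 0.0173). Without library 2 the log2 fold change was 0.18 (adjusted p = 0.0450).

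Ndufaf1, a member of the inner membrane assembly complex, was at 18.8, 19.7, 18.4, 18.4 and 15.4 CPM in enzalutamide and 18.4, 17.5, 17.6, 14.9 and 18.2 CPM in DMSO (log2 fold change 0.07, adjusted p = 0.529). Ndufaf2, a paralogue of Ndufa12 that occupies its place during assembly, was at 14.6, 14.97, 11.8, 12.3 and 12.6 CPM in enzalutamide and 15.1, 10.9, 14.3, 13.2 and 15.01 CPM in DMSO (log2 fold change -0.05, adjusted p = 0.733). Neither gene's groups were apart. An annotated long non-coding RNA on the opposite strand covers 65.7% of the exonic bases of Ndufaf2, so reads there cannot be assigned without a strand setting. Ndufaf5 hydroxylates an arginine of NDUFS7 in human cells, and its values were 31.03, 33.6, 30.4, 33.3 and 33.2 CPM in enzalutamide and 29.1, 33.5, 32.9, 31.8 and 33.9 CPM in DMSO (log2 fold change 0.0044, adjusted p = 0.961). Ndufaf7, an arginine methyltransferase in human cells, stood at 30.9, 32.3, 34.6, 28.2 and 31.8 CPM in enzalutamide and 30.9, 28.7, 35.7, 29.1 and 30.9 CPM in DMSO (log2 fold change 0.02, adjusted p = 0.819). Both had overlapping groups and did not pass. The median log2 fold change was 0.00441 for the assembly factors and -0.08 for the subunits. No test was made of this difference, since the members share the same 10 libraries. As single libraries were left out, the assembly factor median lay between -0.01 and 0.02 and the subunit median between -0.11 and -0.04. Without enzalutamide library 5 the medians were -0.0056 for the assembly factors and -0.04 for the subunits.

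Levels were compared per length, as CPM per 1000 bases of each gene's longest annotated transcript. Ndufa4 had 251 in enzalutamide and 288 in DMSO on this scale, and Ndufb9 had 244 and 209.6, both among the highest levels. Without Ndufa4l2, the 37 subunits had a median of 94.0 in enzalutamide and 101 in DMSO. Assembly factors had levels of 5.51 to 26.9 in enzalutamide and 5.70 to 26.8 in DMSO, with medians of 12.3 and 11.7. The lowest subunits, Ndufb2 at 17.1 and 18.2 and Ndufb7 at 19.2 and 21.6, have longest transcripts of 4371 and 4435 bases. If shorter forms are the ones expressed, their per-length levels are understated. Across 44 members the Spearman correlation of log2 fold change with the DMSO level in CPM was -0.45, and with transcript length -0.06. As a set the members are short, with a median longest transcript of 1200 bases against 3195 over all genes tested. The part of length in the shift of the whole set was not tested by a correlation among members. With GC content and length trends removed, the median log2 fold change was -0.075 for the subunits and 0.036 for the assembly factors. It was -0.014 over all genes. As reported, these medians were -0.083, 0.0044 and 0.0067. The members share libraries, so the correlations are a description only.

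**Figure D3:**
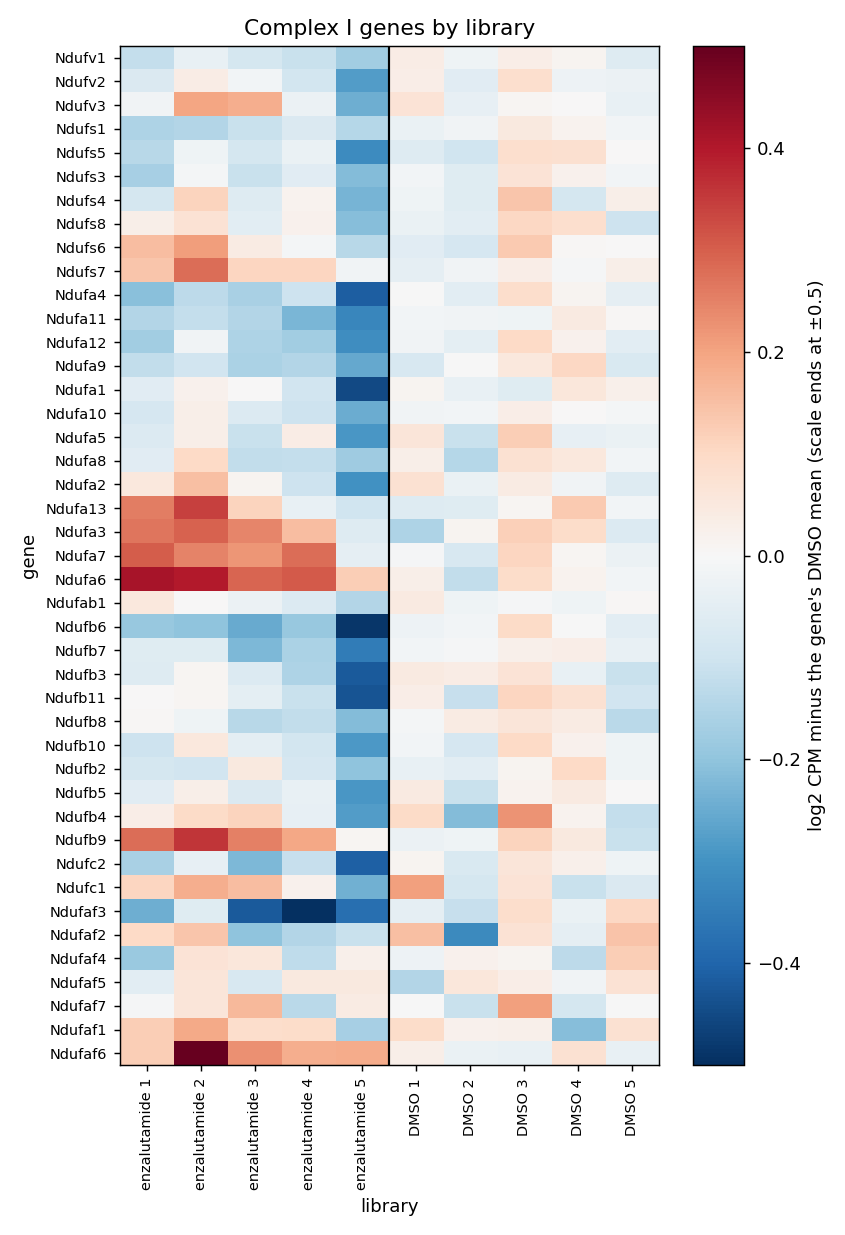
Log2 CPM of the same 43 members minus the gene's DMSO mean, with libraries as columns and genes as rows in the same order as in the plot of fold changes; red is above and blue below that mean, and the scale ends at ±0.5. Enzalutamide library 5 is blue in most rows, while Ndufa6, Ndufa7, Ndufa3 and Ndufb9 are red in libraries 1 to 4.

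Promoter windows of RefSeq (GRCm38.p6), from 250 bases before to 50 after an annotated start, were matched by symbol for 39 of 45 members (Ndufa2, Ndufa4l2, Ndufaf6, Ndufb9 and Ndufs1 are among those not matched). Stretches from 2 members that rose (Ndufa6 and Ndufa3) and 2 that fell (Ndufa11 and Ndufb6) are shown to set genes that moved in opposite directions side by side. Each is the run of bases before the start that lies in no annotated exon, 5′ to 3′ on the gene's strand, with the letters of the searched motifs in capitals. It ends 31 bases before the start in Ndufa6 and at the start in the other 3. In Ndufa11 it is short because an exon of Vmac, on the opposite strand, lies before it.
Ndufa6 (chr15:82354323-82354541, minus strand): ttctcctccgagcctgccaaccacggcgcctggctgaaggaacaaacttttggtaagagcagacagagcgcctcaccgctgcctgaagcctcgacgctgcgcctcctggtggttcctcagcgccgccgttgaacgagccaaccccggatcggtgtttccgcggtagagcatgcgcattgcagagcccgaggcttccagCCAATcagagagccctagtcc
Ndufa3 (chr7:3617123-3617372, plus strand): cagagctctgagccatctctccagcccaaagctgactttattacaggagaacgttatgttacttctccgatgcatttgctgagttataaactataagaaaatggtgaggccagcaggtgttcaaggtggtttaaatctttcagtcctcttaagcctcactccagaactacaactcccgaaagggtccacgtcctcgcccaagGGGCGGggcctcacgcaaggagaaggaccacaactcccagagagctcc
Ndufa11 (chr17:56717686-56717761, plus strand): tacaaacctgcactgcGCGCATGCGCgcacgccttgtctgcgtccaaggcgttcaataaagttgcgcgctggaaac
Ndufb6 (chr4:40279422-40279671, minus strand): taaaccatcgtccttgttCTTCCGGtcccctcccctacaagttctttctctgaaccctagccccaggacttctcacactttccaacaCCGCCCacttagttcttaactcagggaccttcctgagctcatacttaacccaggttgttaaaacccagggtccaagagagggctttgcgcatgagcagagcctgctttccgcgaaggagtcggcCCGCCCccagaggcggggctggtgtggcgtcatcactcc

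The printed stretch of Ndufa6 holds a CCAAT box and that of Ndufa3 an SP1 box (GGGCGG). The stretch of Ndufa11 holds the palindromic NRF1 motif, and that of Ndufb6 an ETS motif (CCGGAAG) and a pair of SP1 boxes, each read on either strand. None of the strings searched contains another. NRF1 is a transcription factor known for nuclear genes of the respiratory chain. Over the whole windows its letters were present in 9 of 39 members (23.1%) and in 5.19% of 27025 genes. These are all genes with a window, including genes not tested here, whereas all members were tested. The shares of genes below have the same base, and no comparison with expressed genes alone was made. Letters of YY1 (AAGATGGC), another known regulator of mitochondrial genes, were present in 17.9% of members and 3.19% of genes. The NRF1 letters were in 1 of 4 matched members that rose (Ndufa6, outside the stretch printed), 1 of 10 that fell (Ndufa11) and 7 of 25 that were not called. The YY1 letters were in 2 members that rose, 1 that fell and 4 that were not called. SP1 boxes were in 51.3% of members and 38.2% of genes, ETS letters in 12.8% and 9.93%, CCAAT boxes in 33.3% and 41.1%, E-boxes (CACGTG) in 5.13% and 8.09%, and cAMP response elements (TGACGTCA) in 7.69% and 2.03%. The palindromic androgen receptor element, the ATF4 composite letters TGATGCAA and an ERR motif (TCAAGGTCA) were in 0 of 39 members, against 0.0111%, 1.03% and 0.466% of genes. Each string is so rare that any 39 genes would most likely hold 0, so these absences are not particular to the members. A match of letters is a description of the sequence and not a measured binding site.

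The subunits made in mitochondria, which form the proton-pumping core of the membrane arm, did not move together. Of 7 mt-Nd genes 2 rose and 2 fell, a share of 57.1%, against 37.8% of all genes tested. The gene mt-Nd6, the one encoded on the opposite strand from the others, averaged 1632 ± 213 CPM in enzalutamide and 1333 ± 195 CPM in DMSO (log2 fold change 0.29, adjusted p = 0.0149), and mt-Nd5 averaged 7601 ± 356 and 6672 ± 444 CPM (log2 fold change 0.19, adjusted p = 0.00108). The genes mt-Nd1 (log2 fold change -0.16, adjusted p = 0.00319) and mt-Nd2 (log2 fold change -0.10, adjusted p = 0.0121) were lower, whereas mt-Nd3 (log2 fold change -0.11, adjusted p = 0.0527), mt-Nd4 (log2 fold change 0.09, adjusted p = 0.092) and mt-Nd4l (log2 fold change 0.02, adjusted p = 0.732) did not pass. Nuclear copies of mitochondrial DNA and the unknown strand setting make these counts less certain, and the share of all mitochondrial transcripts was itself higher in enzalutamide.

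Of the 12 assembly factors listed without an Ndufaf symbol, 9 were measured, 1 fell and none rose. The share called was 11.1%, against 37.8% of all genes tested. The one that fell was Acad9, a partner of Ndufaf1 in the inner membrane assembly complex. It stood at 62.5, 64.4, 62.7, 62.8 and 60.4 CPM in enzalutamide and 68.3, 71.8, 68.1, 70.8 and 67.7 CPM in DMSO. No values overlapped (log2 fold change -0.15, SE 0.0352, adjusted p = 0.00281). Its partner genes in that complex, Ecsit (log2 fold change -0.08, adjusted p = 0.227) and Tmem126b (log2 fold change -0.04, adjusted p = 0.647), did not pass, nor did Timmdc1 (log2 fold change 0.04, adjusted p = 0.475), which serves the ND1 side of the membrane arm. Nubpl, which delivers iron-sulphur clusters to complex I, had the largest difference of the 9 without passing (log2 fold change 0.25, adjusted p = 0.106).

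Against the other respiratory complexes, the complex I subunits had 11 of 38 genes lower and 5 higher, counted by symbol with Ndufa4 and Ndufa4l2. Complex II had 2 of 4 lower and none higher, and complex III had 5 of 9 lower and 1 higher. In complex IV 4 of 10 fell, in the ATP synthase (complex V) 11 of 16 fell, and none rose in either. The shares called were 42.1% for complex I subunits, 50% for II, 66.7% for III, 40% for IV and 68.8% for V. Over all genes tested the share was 37.8%. The medians were -0.08 for complex I subunits, -0.08 for II, -0.14 for III, -0.10 for IV and -0.17 for V. With Ndufa4 counted in complex IV and Ndufa4l2 left out, 10 of 36 complex I subunits fell and 5 rose (median -0.08), and 5 of 11 complex IV genes fell (median -0.11). No test of the difference between complexes was made. The members named here are those with the lowest adjusted p in each list. In complex II these were Sdha, the flavoprotein subunit (log2 fold change -0.15, adjusted p = 0.000346), and Sdhc, a membrane anchor (log2 fold change -0.10, adjusted p = 0.0455). In complex III the core protein gene Uqcrc2 (log2 fold change -0.19, adjusted p = 6.32e-05), Uqcrb (log2 fold change -0.29, adjusted p = 0.00106) and the Rieske protein gene Uqcrfs1 (log2 fold change -0.19, adjusted p = 0.00475) fell, and the small subunit gene Uqcrq rose (log2 fold change 0.27, adjusted p = 0.00279). In complex IV they were the accessory subunits Cox6a1 (log2 fold change -0.14, adjusted p = 0.00372), Cox6c (log2 fold change -0.23, adjusted p = 0.00594) and Cox7a2 (log2 fold change -0.19, adjusted p = 0.0208). In complex V they were Atp5b and Atp5a1, for the catalytic head (log2 fold change -0.21, adjusted p = 1.53e-05 and log2 fold change -0.20, adjusted p = 4.38e-05), and Atp5g3, for the membrane ring (log2 fold change -0.27, adjusted p = 2.98e-05).

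**Figure D4:**
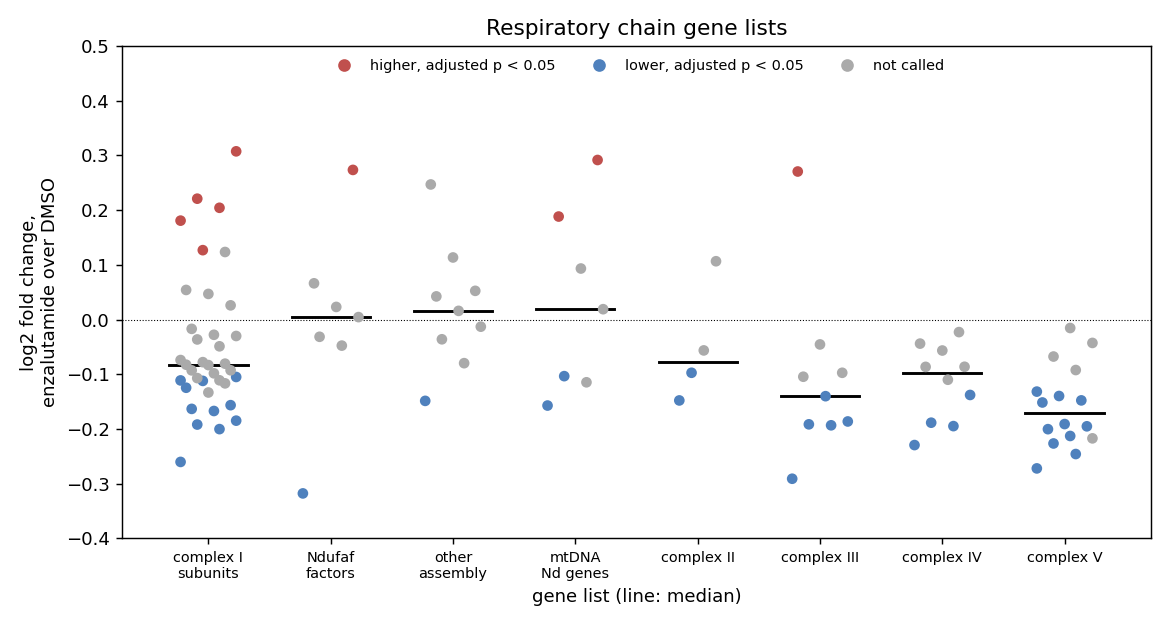
Log2 fold change of enzalutamide over DMSO for each gene of 8 respiratory chain lists, 1 point per gene, with the median as a line and colours for an adjusted p under 0.05 (Ndufa4l2 is left out). Complex V has no point above 0, and the complex I subunits have 5 called points above it.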

How the data were processed

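The authors deposited whole-number counts for 33212 Ensembl genes and a second table of a library-scaled signal, which equals the counts divided by 1 factor per library. HISAT2, StringTie, DESeq2 and the mm10 build are named in the submitters' processing notes without role or version. Neither the strand setting nor the treatment of multiply mapping reads is known here, so genes with processed pseudogenes, paralogues or antisense partners are less certain. All columns were matched to samples by name, and 0 were left unused.

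The deposited counts were tested with edgeR 4.0.16 (R 4.3.3). Genes with low counts were removed by filterByExpr, library sizes were corrected by the trimmed mean of M values (TMM), and both groups of 5 were compared by the quasi-likelihood test with no covariate. P-values were adjusted over 14156 genes after Benjamini and Hochberg (threshold 0.05). Log2 fold changes are enzalutamide over DMSO, the SE is the absolute log2 fold change over the square root of F, intervals are 95%, and each ± is an SD (n = 5). The fit had a biological coefficient of variation of 8.39%. Positions, lengths and GC content came from GENCODE M21 (GRCm38/mm10), which held all 45 members and 96.5% of identifiers, and promoters from RefSeq.

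As alternatives, libraries were scaled by the size factors of DESeq2 or by their totals, genes were not filtered or kept from a mean CPM of 1, a replicate block was added, and the tests were repeated with DESeq2 1.42.0, limma-voom (limma 3.58.1), limma-trend on log2 of the deposited signal plus 1 or 8, and without each library in turn. Removal of GC content and length trends was added after the data were seen. Members and lists were chosen with earlier results of these data known. All members could be named; values by library were given for the 6 called members with the lowest adjusted p in each direction, the assembly factors and the core subunits (some named items are not reported here), and for Acad9, Ndufa4l2 and genes singled out after their values were seen (Ndufab1, Ndufa13, Ndufb3, Ndufa10, Nubpl and the partners of Acad9) the values a sentence turns on.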

Additional observations from a re-analysis of the deposited data

Results flagged for a closer look

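In 5 of 90 sets of 5 values (45 members in each group), 1 library lay far from the other 4, judged by its gap to the nearest value over the whole range (Dixon's critical value 0.71). Chance flags about 1 in 20 such sets. Enzalutamide library 5 was low in 3 of them. Ndufa1, a membrane arm accessory subunit, was at 53.8 CPM there and between 68.9 and 74.8 CPM in the other enzalutamide libraries. Ndufa7 was at 56.5 CPM, against 67.9 to 72.0 CPM in the others, and Ndufb6 at 52.9 CPM, against 62.3 to 65.1 CPM. Enzalutamide library 2 was high for Ndufaf6, at 16.1 CPM, against 11.5 to 12.4 CPM in the other 4. DMSO library 4 was low for Ndufaf1, at 14.9 CPM, against 17.5 to 18.4 CPM in the others.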

How the results depend on the processing

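In the 20 alternatives, between 4 and 7 members were called higher and between 10 and 16 lower, and all genes called kept within 1.5 times of the reported counts. Leaving out single libraries gave 4 to 7 members higher, 11 to 16 lower, 2446 to 2669 genes higher, 2433 to 2685 lower, and medians of -0.1147 to -0.03729 for subunits and -0.01435 to 0.0216 for assembly factors. The replicate numbers did not pair the libraries (correlations of deviations between -0.0555 and 0.105), and with the replicate number as a block 6 members were higher and 14 lower (2659 and 2637 genes). With total counts as library size 6 members were higher and 10 lower, and 60.7% of all called genes were higher, against 50.3% as reported. Removal of GC content and transcript length trends gave 5 higher and 14 lower, with 43.2% of all called genes higher. Of 899 member values under alternatives 839 kept direction and side of the threshold, 28 lost the call, 12 gained one and 20 changed sign. The sign changes concerned 7 members, none of them called. With total-count scaling Ndufa2 had 0.0039, Ndufaf4 0.0028, Ndufb4 0.0172 and Ndufs8 0.0064. Over single libraries left out the ranges were -0.0785 to 0.0311 for Ndufa2, -0.0635 to 0.00439 for Ndufaf4, -0.0335 to 0.0257 for Ndufaf5, -0.0121 to 0.0777 for Ndufaf7, -0.0677 to 0.0434 for Ndufb4, -0.0533 to 0.0153 for Ndufs8 and -0.0203 to 0.0866 for Ndufv3. The cause was not tested. Adding rows with -ps could not be run, as 0 such Nduf rows were in the count table.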

Other observations

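Complex I depends on iron-sulphur clusters, and among 14 genes of their synthesis 4 rose and 2 fell, with a median log2 fold change of 0.05. The share called was 42.9%, against 37.8% of all genes tested. Hspa9, the mitochondrial chaperone that passes clusters on, was at 1016, 1058, 1026, 1049 and 1031 CPM in enzalutamide and 775, 797, 812, 798 and 806 CPM in DMSO. All treated values were higher (log2 fold change 0.38, SE 0.0242, adjusted p = 2.34e-09), as they were for its co-chaperone gene Hscb (log2 fold change 0.34, SE 0.0635, adjusted p = 0.0004). Lyrm4, an LYR protein of the cluster-building enzyme, rose (log2 fold change 0.21, adjusted p = 0.032), as did Isca2 (log2 fold change 0.16, adjusted p = 0.0366). Isca1, a late-acting assembly protein, fell (log2 fold change -0.11, adjusted p = 0.00447).

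Among 8 regulators of mitochondrial genes 1 rose and 2 fell, a share of 37.5%, much as the 37.8% of all genes tested. Ppargc1a, which encodes the coactivator PGC-1α, was at 261, 268, 292, 273 and 297 CPM in enzalutamide and 207, 216, 211, 211 and 222 CPM in DMSO, with no overlap (log2 fold change 0.38, SE 0.0373, adjusted p = 4.09e-07). Nrf1, the gene of the factor whose motif was searched in the promoters, was at 48.5, 43.4, 46.9, 46.2 and 43.2 CPM in enzalutamide and 57.1, 48.2, 52.9, 52.5 and 51.8 CPM in DMSO and fell (log2 fold change -0.20, SE 0.0496, adjusted p = 0.00365). Pprc1, a relative of PGC-1α, also fell (log2 fold change -0.10, adjusted p = 0.0343), while Tfam (log2 fold change -0.02, adjusted p = 0.798), Gabpa (log2 fold change -0.01, adjusted p = 0.869), Esrra (log2 fold change 0.13, adjusted p = 0.0982) and Yy1 (log2 fold change -0.07, adjusted p = 0.201) did not pass. A relation of these levels to those of the complex I genes was not tested.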
